A study of Mus musculus with 2 samples.

Results

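Wnt feedback inhibitor genes encode proteins that dampen Wnt signalling and are, in many tissues, switched on by the same signalling. The set held 8 genes chosen by name, with earlier results of these data known: Axin2, Znrf3, Rnf43, Nkd1, Nkd2, Notum, Apcdd1 and Dkk1. A Lef1 peak was taken as theirs when it overlapped the gene body in mm10 or lay within 50 kb of it. By this rule 10 of the 2052 deposited peaks belonged to the set, and they fell to 4 of the 8 genes: Rnf43 had 4, and Axin2, Znrf3 and Dkk1 had 2 each. Nkd1, Nkd2, Notum and Apcdd1 had none.

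The peaks came from chromatin immunoprecipitation and sequencing with the anti-Lef1 antibody C18A7. Chromatin was taken from TCRb+, CD4+, CD25- conventional T cells of the spleen of wild-type C57BL/6 mice aged 8 to 10 weeks. The background was chromatin of TCRb+, CD4+ cells from CD4-Cre+ Lef1 fl/fl mice on C57BL/6, in which the floxed Lef1 gene is deleted by Cre under Cd4 control. The age of those mice is not given in the sources used here, and the labels do not give CD25 exclusion for their cells. The tissue labels of both libraries read naive CD4 T cells, and whether the gates differed between the libraries is not certain. There was 1 library of each kind and 1 peak list, so no value below has a replicate error and no difference was tested. The depth of the libraries is unknown. A peak list shows where Lef1 signal was called above the control and not which genes were expressed, so the labelled cell type could not be checked by expression.

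In canonical Wnt signalling, secreted Wnt proteins bind Frizzled receptors and Lrp coreceptors, which blocks the complex that destroys β-catenin. β-catenin then enters the nucleus and binds TCF/LEF proteins such as Lef1, which recognise DNA through an HMG box and without β-catenin can recruit Groucho corepressors. The inhibitors act at several levels of this route, from the ligand to the destruction complex. Notum removes a lipid from Wnt proteins outside the cell, Dkk1 blocks the Lrp coreceptors, and Apcdd1 is a membrane protein that antagonises Wnt. Znrf3 and Rnf43 are membrane ubiquitin ligases that remove Frizzled receptors from the surface. Axin2 is a scaffold of the destruction complex, and Nkd1 and Nkd2 are cytoplasmic proteins that bind Dishevelled. In T cells Lef1 and its relative Tcf7 are known for their part in thymocyte development and in naive and memory cells.

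A pair of promoter sequences are printed here. The one of Axin2 is the only one of the 6 member promoter windows that a peak overlapped. The one of Dkk1 is the only one of them with a TCF/LEF word. Each window runs from 250 bases before to 50 after a start site in RefSeq (GRCm38.p6, the assembly that mm10 denotes) and is written 5′ to 3′ on the strand of the gene. RefSeq windows were found for 5 of the 8 genes, 6 windows in all, with 2 for Rnf43 and none for Znrf3, Notum and Apcdd1. The Axin2 window lies at chr11:108920099-108920398 on the plus strand, and its capitals mark the 193 bases inside the peak. The Dkk1 window lies at chr19:30549447-30549746 on the minus strand, and its capitals mark the word CTTTGAA.
Axin2: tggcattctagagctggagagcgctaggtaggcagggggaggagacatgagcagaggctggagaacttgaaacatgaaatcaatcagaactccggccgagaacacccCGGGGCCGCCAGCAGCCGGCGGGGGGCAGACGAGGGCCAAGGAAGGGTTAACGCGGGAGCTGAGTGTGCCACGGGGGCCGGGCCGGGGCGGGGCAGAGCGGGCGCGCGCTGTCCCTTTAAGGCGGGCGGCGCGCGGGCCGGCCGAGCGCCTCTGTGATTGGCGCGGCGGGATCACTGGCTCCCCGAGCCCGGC
Dkk1: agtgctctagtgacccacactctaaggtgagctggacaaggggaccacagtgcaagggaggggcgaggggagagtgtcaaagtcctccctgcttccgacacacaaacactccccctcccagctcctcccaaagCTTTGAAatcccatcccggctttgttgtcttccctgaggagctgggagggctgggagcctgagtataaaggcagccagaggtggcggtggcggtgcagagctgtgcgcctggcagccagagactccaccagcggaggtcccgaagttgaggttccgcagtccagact

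The widest peak of the whole list lay on the Axin2 promoter. It spanned chr11:108920206-108921346, from 143 bases before the RefSeq start site to 997 after it, inside the annotated gene body (chr11:108917828-108950783), which begins 2521 bases before that start site. Its score, which is −log10 p as the authors deposited it, was 5.86, which ranked 280 of 2052. Its width was 1141 bp, where the next widest peak of the list had 637 bp and the median peak 79 bp. The 100 peaks next to it in score (50 above, 50 below, scores 5.63 to 6.31) had a median width of 102.5 bp and a maximum of 486 bp.

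Few promoters were covered in this way. Of the 32851 RefSeq promoter windows 312 (0.95%) were overlapped by a peak. Counting that of Axin2 itself, 33 windows shared at least as many bases with a peak as the Axin2 window did. The overlaps with all 312 windows came from 258 peaks with a median width of 100 bp. After the Axin2 peak the widest of these 258 had 466 bp. A second Axin2 peak, chr11:108921422-108921478, began 75 bases beyond the end of the first. It was 57 bp wide with a score of 4.28, and at this spacing the 2 peaks can be parts of 1 site. The nearest other coding gene, Cep112, was 59.6 kb from the wide peak.

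The 300 bases of the Axin2 window were rich in G and C. They made up 70% of the bases, against a median of 52.7% over all promoter windows, and the window held 31 CG dinucleotides against a median of 7. Neither CTTTGAA nor CTTTGAT, words that TCF/LEF proteins are known to bind, occurred in it on either strand, and the shorter core CTTTG did not occur either. Of all promoter windows 8.65% held CTTTGAA or CTTTGAT on either strand, and of the 312 overlapped by a peak 23.1% did. For CTTTG, which both longer words contain, these shares were 53.9% and 55.8%. Only 193 of the 1141 bases of the peak lie in the window, and the sequence of the rest was not used here.

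Both membrane ubiquitin ligase genes had peaks, and those of Znrf3 scored higher. Znrf3 had the highest-scoring peak of the set, chr11:5411624-5411951, with a score of 12.52 (rank 17 of 2052) and a width of 328 bp. It lay deep inside the gene body (chr11:5276329-5444847), 135.5 kb from the low-coordinate end and 33.1 kb from the high-coordinate end. The 66 peaks next to it in score (16 above, 50 below) had a median width of 228.5 bp, and ranged from 57 to 631 bp. The other Znrf3 peak, chr11:5444838-5445094, straddled the high-coordinate end of the gene and shared 10 bases with it. It had a score of 5.98 and a width of 257 bp, and ranked 251 by score. No RefSeq promoter window was found for Znrf3, so whether this peak lies on its promoter was not examined.

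No other coding gene was near either Znrf3 peak. The closest was Xbp1, which encodes a transcription factor of the unfolded protein response, at 108.7 kb from the inner peak and 75.5 kb from the one at the gene end. Kremen1, which encodes a Dkk1 receptor, begins 14.6 kb beyond the low-coordinate end of Znrf3. Its own peaks lay on its far side, 98.8 kb or more from Znrf3, with a score of 4.08 each.

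Rnf43 had the most peaks of the set, all with scores of 4.64 or less. Of its 4 peaks 3 lay inside the gene body (chr11:87663087-87735539). The one at chr11:87709837-87709934 scored 4.17 and lay 9.99 kb downstream of the nearer of the 2 RefSeq start sites. The ones at chr11:87721041-87721160 (4.08) and chr11:87721321-87721375 (4.53) were separated by 160 bases and lay 21.2 and 21.5 kb downstream of that start site.

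The last Rnf43 peak, chr11:87749700-87749854 (4.64), lay outside, 14.2 kb beyond the high-coordinate end. It was nearer to Supt4a, which encodes a transcription elongation factor, at 6.08 kb, and it was the only one of the 10 peaks whose nearest coding gene was not the member. All 4 scores lay between 4.08 and 4.64, where the list starts at 4.01 and has its median at 4.40. Neither RefSeq promoter window of Rnf43 was overlapped by a peak or held CTTTG. Having 4 or more peaks within 50 kb was rare, at 0.128% of coding genes (28 genes), but a pair of the Rnf43 peaks can be parts of 1 site.

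**Figure D1:**
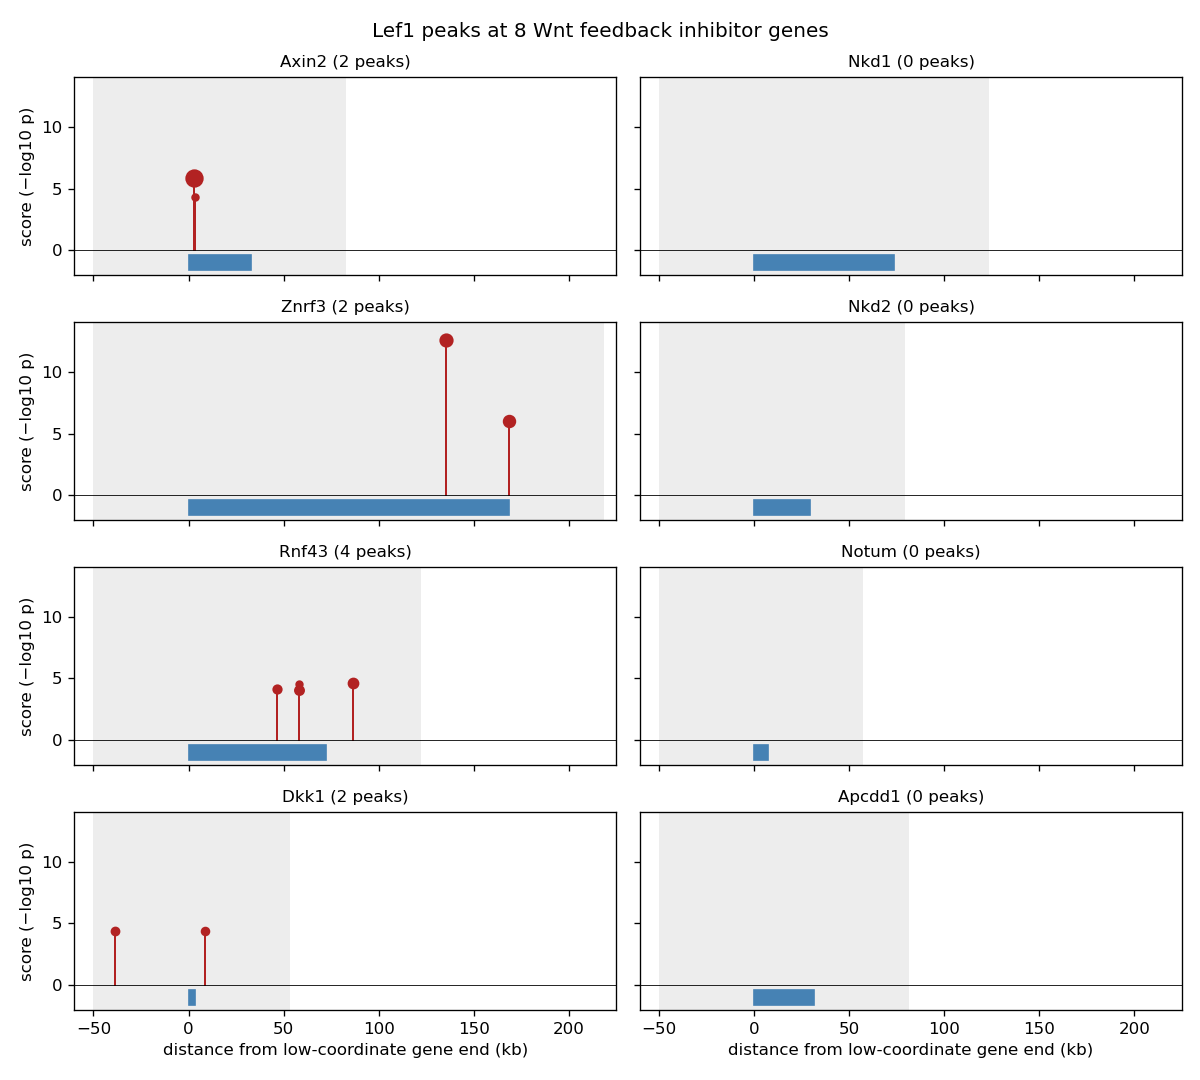
Lef1 peaks around the 8 genes. Blue bars are gene bodies, grey the window of 50 kb on either side, and each red line is a peak at its distance (kb) from the low-coordinate gene end, with the score (−log10 p) as height and a larger dot for a wider peak. Axin2 has its peaks near the low-coordinate end, Znrf3 has the highest score (12.52), Rnf43 has 4 peaks of 4.64 or less, those of Dkk1 lie outside the gene, and the right-hand genes have none.

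The secreted inhibitor Dkk1 had peaks only outside its gene. Its body is short (3.62 kb, chr19:30545876-30549496), and the peaks lay on either side of it. The peak at chr19:30554531-30554610 was 80 bp wide and centred 5.07 kb upstream of the start site. The peak at chr19:30507278-30507362 was 85 bp wide and centred 42.2 kb downstream of it. Both scored 4.40, a value shared by 828 peaks, or 40.4% of the list, so the peaks of Dkk1 cannot be ranked above the bulk of it. Prkg1, a cGMP-dependent kinase gene, was the next coding gene, 9.88 kb from the upstream peak and 57.1 kb from the other.

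The promoter of Dkk1 was the only one of the 6 member windows with a TCF/LEF word. CTTTGAA stood on the coding strand from 117 to 111 bases before the start site, as the capitals show. The core CTTTG occurred 4 times in this window on both strands together, that match included, and in none of the other 5 windows. Of all promoter windows 8.65% held CTTTGAA or CTTTGAT and 53.9% held CTTTG, so neither match is particular to Dkk1. No peak overlapped the Dkk1 window. Among the member windows, the one under a peak and the one with the word were therefore different ones.

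The remaining 4 genes had no peak within 50 kb, and their nearest ones lay 163.4 to 770.3 kb from the gene. For Notum (chr11:120653788-120661193), the extracellular Wnt deacylase, the nearest was at 163.4 kb with a score of 4.25. For Nkd1 (chr8:88521342-88594887) and Nkd2 (chr13:73818534-73847631) it was at 402.7 and 412.9 kb, with a score of 4.40 in each case. For Apcdd1 (chr18:62922327-62953815) it was at 770.3 kb, with a score of 4.06. Of all coding genes 33.7% had a peak as near as that of Notum or nearer, 56.6% and 57.3% as near as those of Nkd1 and Nkd2, and 74.3% as near as that of Apcdd1. The promoter windows of Nkd1 and Nkd2 held neither motif nor core. Lef1 sites below the threshold of this list would not be seen.

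**Figure D2:**
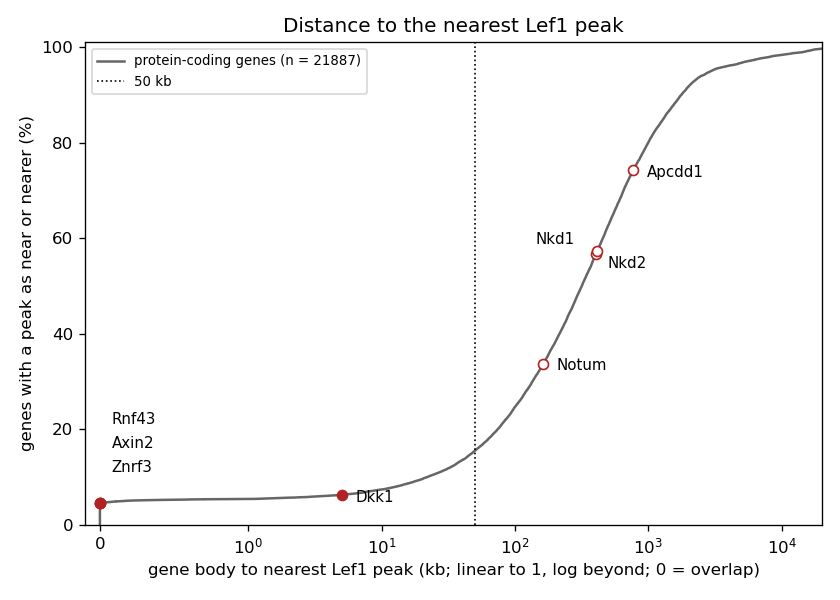
Share of protein-coding genes (%) whose nearest Lef1 peak is as near or nearer, against distance from the gene body (kb). Filled points are the 4 members with a peak within 50 kb (dotted line) and open points the 4 without: Axin2, Znrf3 and Rnf43 stand at 0, Dkk1 at 5.04 kb, and the others from 163.4 kb (Notum) to 770.3 kb (Apcdd1).

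Counted over the set, 4 of 8 genes (50%, 95% exact Clopper-Pearson interval 15.7 to 84.3%) had a peak inside or within 50 kb, where 15.5% of the 21887 protein-coding genes did. The interval is wide because the set is small, and it is given as a description of 8 genes, not as a test. Because the genes were chosen with earlier results of these data known, the contrasts with all coding genes do not measure enrichment. At least 2 peaks were found at 4 of the 8 genes and at 2.61% of coding genes. With peaks within 1 kb merged, the 2 peaks of Axin2 became 1, and 3 of the 8 genes and 1.79% of coding genes had at least 2. A peak above the median score was found at 3 members (Axin2, Znrf3 and Rnf43), against 5.84% of coding genes. Rnf43 was counted through its peaks of 4.53 and 4.64, little above the median of 4.40. The one of 4.53 was 55 bp wide, the smallest width in the list, and the one of 4.64 was nearer to Supt4a.

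The same 3 members had a peak that overlapped the body (37.5%, interval 8.52 to 75.5%), where 4.51% of coding genes did. Among longer genes the share was higher. Of the 6999 coding genes at least as long as Axin2 (33 kb) 9.2% had a peak in the body, and of the 4 members of that length all but Nkd1 did. Of the 8 genes 4 lie on chromosome 11, where 18.5% of coding genes had a peak within 50 kb, and 3 of those 4 members did. Expressed by length, the members with 50 kb on either side spanned 1.22 Mb and held 8.2 peaks per Mb (95% exact Poisson interval 3.93 to 15.1), against 0.831 on the autosomes and 1.12 on chromosome 11. The lengths used for the autosomes and chromosome 11 run from the first to the last gene and include stretches without genes. They are therefore not matched to the gene windows of the members. The intervals cover counting error only, and neighbouring peaks are not independent.

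The median score of the 10 peaks was 4.47 (range 4.08 to 12.52) against 4.40 over all peaks, and 5 of the 10 (50%) lay above the median of the list, where 628 of all 2052 peaks did (30.6%), since many peaks share the median score. Only the inner Znrf3 peak reached a score of 8, as 97 peaks of the list did. The median width of the 10 peaks was 109 bp, against 79 bp over all peaks. The genes of the set differed among themselves: both Znrf3 peaks were wide and scored 5.98 or more, while no Rnf43 or Dkk1 peak exceeded 155 bp or 4.64.

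**Figure D3:**
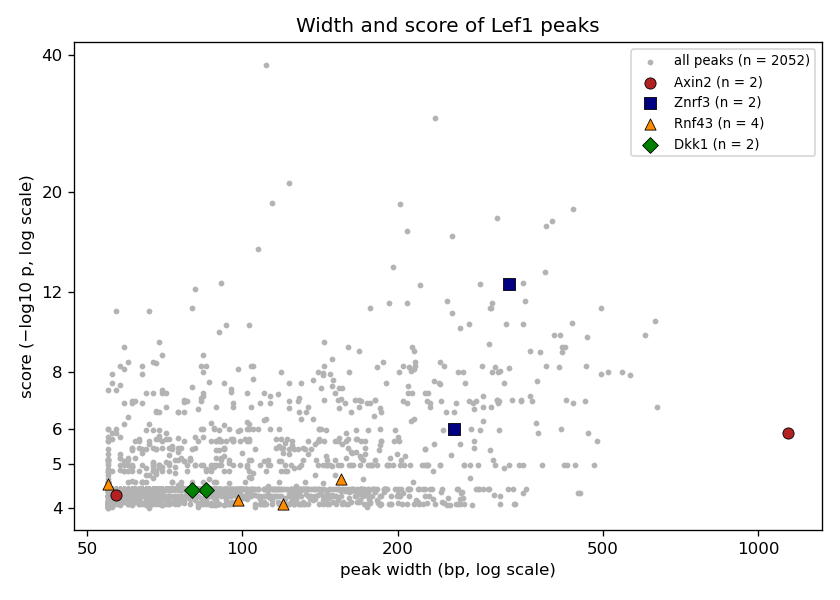
Score (−log10 p) against width (bp) of all 2052 peaks in grey, both axes on a log scale, with the 10 peaks of the set by gene. The wide Axin2 peak (1141 bp, score 5.86) stands apart to the right, the Znrf3 peaks are high and wide, and those of Rnf43 and Dkk1 lie at scores of 4.64 and below.

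Few peaks lay close to the limit of 50 kb. The peak farthest out but still counted was that of Dkk1 at 38.5 kb, and the nearest left out was one at 61 kb from Axin2, chr11:109011825-109012009, with a score of 6.00 and a width of 185 bp, higher in score than the peak on the Axin2 promoter. The next lay 98.8 kb from Znrf3, nearer to Kremen1.

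The other genes of the pathway were read by the same rule, from lists chosen by function, also with earlier results known. Of 96 such genes 20 (20.8%, interval 13.2 to 30.3%) had a peak, close to the 15.5% of all coding genes. Among 21 other Wnt antagonists, which hold the Sfrp, Dkk and Dact families, only Kremen1 did (4.76%), and Dkk2, Dkk3 and Dkk4 did not. Of 19 Wnt ligand genes 2 had a peak, Wnt1 and Wnt10b, and it was the same peak, which overlapped Arf3. Of 15 receptor genes Fzd4 and Fzd7 (4.40 each) and Lrp5 (4.09) had one, of which that of Fzd7 overlapped the gene. The peak counted for Fzd4 overlapped Tmem135, 25.3 kb from Fzd4. The one counted for Lrp5 was nearer to Ppp6r3 (0.117 kb) than to Lrp5 (8.58 kb). Lgr4, a receptor for R-spondins, the ligands that counteract Znrf3 and Rnf43, had 1 peak of 4.40 at 3.59 kb that overlapped Ccdc34, and the 4 R-spondin genes had none. The secretion genes Porcn and Wls had none.

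Inside the cell, 6 of 12 genes of the destruction complex and Dishevelled had a peak (50%, interval 21.1 to 78.9%). Axin1, the relative of Axin2, had 1 of 4.17 in its body, Gsk3b 1 of 4.94 in its body, and Csnk1a1, a casein kinase of the complex, 1 of 4.40 in its body. Those of Gsk3a (up to 4.14), Dvl2 (4.40) and Ctnnb1 (4.25) lay outside. Apc had none. Of 12 TCF/LEF factors and cofactors Tcf7l2 (13.29), Lef1 (7.65) and Tcf7 (6.68) had peaks, and no Tle, Bcl9 or Pygo gene did. These are the highest scores of each gene. The Tcf7l2 peak of 13.29 overlapped the gene, but the Lef1 peak of 7.65 lay 4.07 kb outside and the Tcf7 peak of 6.68 lay 30.7 kb outside. The peaks that overlapped Lef1 scored 4.80 and 5.41, and the one that overlapped Tcf7 scored 4.40. Part of Lef1 is deleted in the control cells. Of 8 other Wnt targets 4 had one: Ppard (7.38), Cd44 (6.91), Ccnd1 (4.34) and Sp5 (4.08). The peak of highest score for Ppard lay inside Def6, and only the one of 5.94 overlapped Ppard. Within the pathway, then, the scores of 12 or more stood at Tcf7l2 and Znrf3. By the 50 kb rule the share of genes with a peak in the set equalled that in the destruction complex list and in the other targets. By overlap with the body the counts were 3 of 8, 3 of 12 and 1 of 8 in that order. The peaks counted for Gsk3a, Dvl2 and Sp5 overlapped other genes (Cic, Asgr1 and Myo3b), and that of Ccnd1 was nearer to LTO1.

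**Figure D4:**
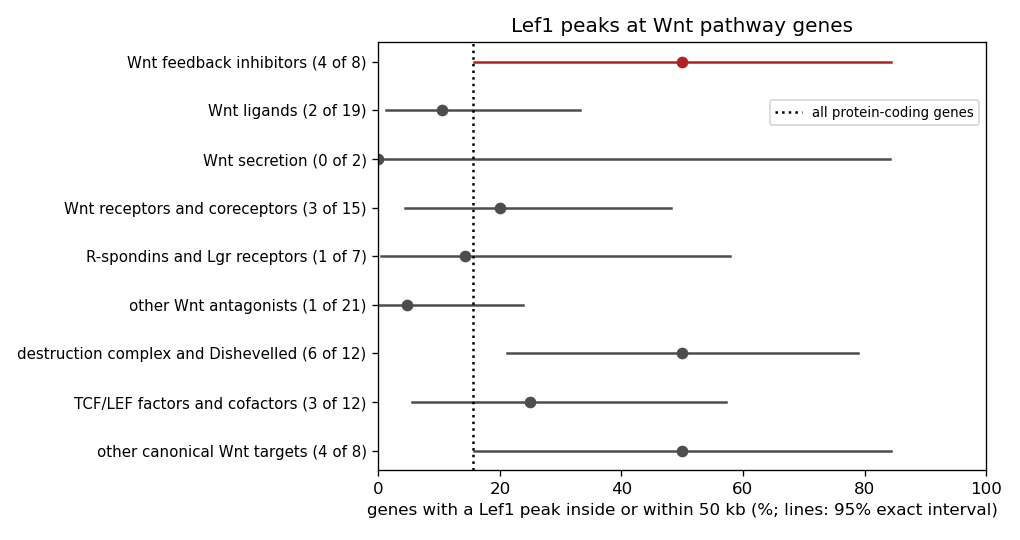
Share of genes (%) with a Lef1 peak inside or within 50 kb in the feedback inhibitor set (red) and in 8 lists of other Wnt pathway genes, with 95% exact intervals as lines. The dotted line is the 15.5% of all protein-coding genes: the set, the destruction complex and the other targets have points at 50%, and other antagonists stand at 4.76%.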

How the data were processed

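The analysis started from the single peak list deposited for the wild-type library. Peaks were called against the Lef1-deficient library, per the labels. The deposited score is the −log10 of the p-value of each peak, per the file headers. Bowtie2 2.3.4.1, MACS2 2.1.1, FastQC and the mm10 build are named in the submitters' processing notes, with no parameters. Read counts, depth, fold enrichment and summits were not used here, so a score measures excess reads in 1 pair of libraries and not reproducibility.

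Positions are 1-based: 1 was added to each start, assuming the BED convention. Gene bodies were 21887 protein-coding genes of the RefSeq table of GRCm38.p6. Distances run from edge to edge, with 0 for overlap. Peaks were joined to genes in Python 3.11.15 (pandas 2.3.3, scipy 1.17.1), and the joins and motif search were checked on simulated data. No genome sequence was used here, so motifs were sought in RefSeq promoter windows and not in peaks, and planned protein comparisons were not made. Trabd2a and Apcdd1l had no entry. Planned lists of cell type markers are not reported here.

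The members and lists were chosen with earlier results of these data known. Every member is named, and of each other list the genes with a peak. Samples were grouped by their genotype label. Alternatives were distances of 10 and 100 kb or overlap alone, peaks above the median score or of at least 8, peak centres, peaks within 1 kb merged, and the shorter motif.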

Additional observations from a re-analysis of the deposited data

How the results depend on the processing

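Of 36 repeated counts and medians, 26 stayed within 1.5 times the reported count or within the interval of the median (4.17 to 5.98), and 10 moved. Within 10 or 100 kb, by peak centres and with close peaks merged, 4 genes of the set had a peak, and 3 did by overlap alone or with peaks above the median score. With peaks above the median score there were 5 peaks in the set, 4 of them nearest to the member, and 6 other pathway genes with a peak. With a score of at least 8, 1 gene, Znrf3, kept 1 peak, which was nearest to it, the median score was 12.52, and 1 other pathway gene had a peak. Of the other pathway genes 11 had a peak within 10 kb and 8 by overlap, against 20. These settings use fewer peaks or shorter distances by construction. Coding genes with a peak made up 7.33% within 10 kb, 24.6% within 100 kb and 0.932% at a score of at least 8. No paired analysis was possible because there is 1 peak list from 1 pair of libraries, so no replicate could be left out either. Motifs in widened peaks were not run, since no genome sequence was used here. The depth is unknown.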

Other observations

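The deposited peak names carry call numbers that rise with position on every chromosome and run from 26 to 33876, and 6.06% of those numbers are listed. If calls were numbered in order, gaps in the numbers count calls that were not listed. At Axin2, Rnf43 and Dkk1 the numbers of neighbouring listed peaks were consecutive. No unlisted call therefore lay in the 47.2 kb between the peaks of Dkk1 or in the 28.3 kb between the last Rnf43 peaks. Between the Znrf3 peaks, 32.9 kb apart, there were 3 unlisted calls.

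Unlisted calls were present around all 8 genes. In the stretch between the listed peaks that flank the 50 kb windows there were 24 for Axin2 (15.8 per Mb), 21 for Znrf3 (20.8), 14 for Rnf43 (17.2) and 16 for Dkk1 (9.57). For the genes without a listed peak there were 17 for Nkd1 (1681.6 kb), 81 for Nkd2 (5088.5 kb), 22 for Notum (995.1 kb) and 25 for Apcdd1 (2308.3 kb). These are 10.1, 15.9, 22.1 and 10.8 per Mb, where the chromosomes of the 8 genes had 12.4 to 14.6. Where in each stretch they lay, and their scores, were not used here.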
